A study of Mus musculus with 6 samples.

Results

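The tumour necrosis factor (TNF) superfamily consists of trimeric cytokines, most of them anchored in the cell membrane, and of the receptors that bind them. The set described here holds 35 genes, 15 ligands and 20 receptors, out of 55401 genes with a value in each library. Its members were picked by gene symbol from the TNF and TNF receptor superfamily without the BAFF and APRIL group. All 35 symbols were matched to an Ensembl gene in the files. A further 6 genes of the family, among them Tnfrsf26, lie outside the set and are described below as a separate list. The RNA came in bulk from lamina propria cells, the immune and stromal cells of the connective tissue under the epithelium, isolated from the colon of male mice aged 5 to 6 weeks. Every mouse carried the Min allele of the tumour suppressor gene Apc (Apc Min/+), and none of the groups was wild type. The 3 libraries of atorvastatin came from mice given the drug, an inhibitor of cholesterol synthesis, at 20 mg/kg by oral gavage on alternate days. The 3 libraries of vehicle came from mice given 2% Tween 80 by the same route.

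When a ligand of this family binds, its receptors cluster and recruit adaptor proteins. Receptors with a death domain, such as TNF receptor 1 and Fas, can start either NF-κB signalling or cell death, and the others bind TRAF adaptors and mainly activate NF-κB. In the gut wall, TNF drives inflammation, the lymphotoxins act through the lymphotoxin beta receptor to build and maintain lymphoid follicles, and the costimulatory pairs pass signals between antigen-presenting cells and lymphocytes.

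Values are fragments per kilobase of transcript, scaled to library size (FPKM), so levels of different genes can be compared per length. Summed FPKM lay between 355787 and 456064 in the atorvastatin libraries and between 407016 and 421410 in the vehicle libraries, and 13303 to 13703 genes reached 1 FPKM in a library. Markers of the labelled population were present, with summed T cell markers at 163 to 196 FPKM with atorvastatin and 185 to 231 FPKM with vehicle, and summed fibroblast markers at 1070 to 1390 and 1100 to 1450 FPKM in the same order. Epithelial markers, led by Epcam and Krt8, added up to 22.1 to 47.9 FPKM with atorvastatin and 37.1 to 48.5 FPKM with vehicle. In bulk RNA, fewer cells of a type and less RNA per cell cannot be told apart. Nothing in the labels says that the libraries of a group are separate animals. The p-values therefore set a group difference against the variation between these libraries, part of which may be technical.

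Of the 35 members, 31 reached the level for testing, at least 1 FPKM in at least 3 libraries. All 20 receptors were among them. The other members, 4 ligands, stayed below it: Cd40lg, Cd70, Tnfsf15 and Tnfsf18. Receptors were the more abundant side, with a median level over the 6 libraries of 12.9 FPKM and a maximum of 60.7 FPKM, against a median of 3.00 FPKM and a maximum of 22.2 FPKM for the ligands. Summed over all 20 receptors the level was 397, 322 and 376 FPKM in atorvastatin libraries 1, 2 and 3, against 350, 323 and 373 FPKM in vehicle libraries 1, 2 and 3. The sum over the 15 ligands was 103, 88.5 and 103 FPKM with atorvastatin, against 105, 99.6 and 113 FPKM with vehicle. Neither sum separated the groups.

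**Figure D1:**
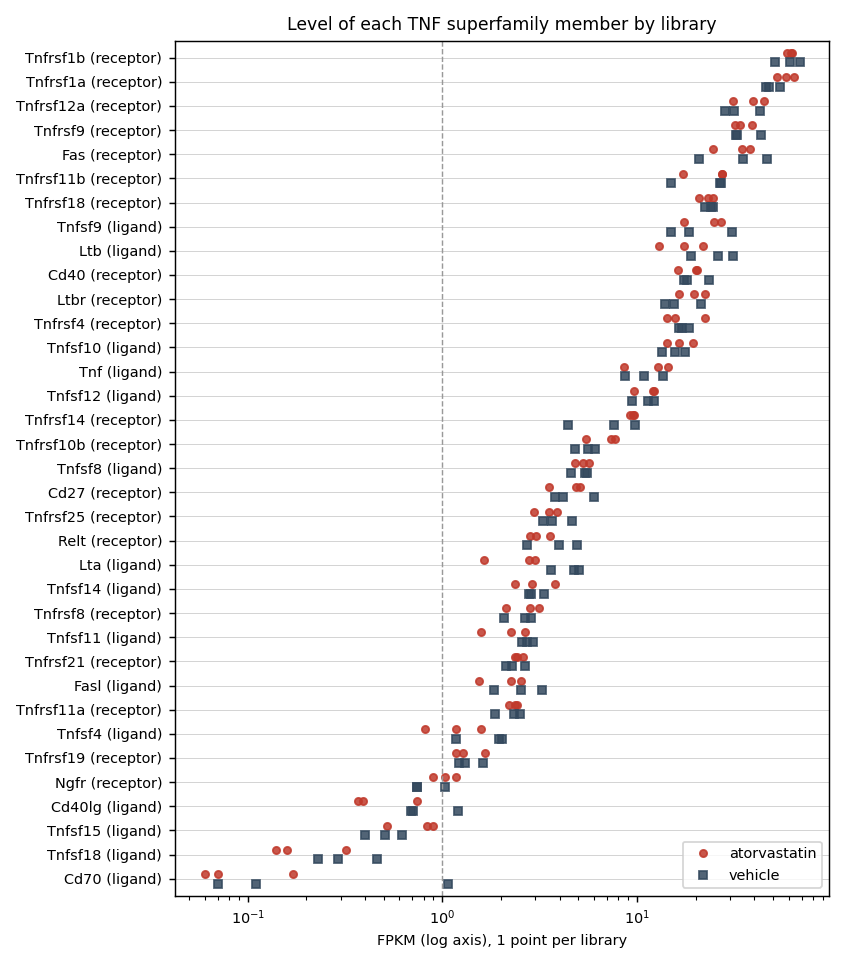
FPKM of the 35 members on a log axis, 1 point per library, with atorvastatin (circles) drawn above vehicle (squares) in each row and genes ordered by their mean over the 6 libraries. The dashed line marks 1 FPKM; levels run from 0.06 FPKM for Cd70 to 68.45 FPKM for Tnfrsf1b, and only Lta shows groups that do not overlap.

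The comparison of atorvastatin with vehicle asks which of these genes differ in the colonic lamina propria under the drug. Lymphotoxin alpha (Lta) was the one member whose atorvastatin libraries all lay below its vehicle libraries, and its partner lymphotoxin beta (Ltb) had the next largest difference. Of the 31 tested members, only Lta had a 95% interval of the difference that left out 0. The interval of Ltb included 0, as did those of TNF itself, whose gene lies between them, and of all the receptors. No member passed a false discovery rate of 0.05 in limma, a linear model fitted across all genes on log2(FPKM + 1), where 0 of 13590 genes (0%) passed. At an unadjusted p under 0.05, 1 of 31 members (Lta) was lower and 0 were higher. Over all genes tested 7.17% were below that p, 3.13% higher and 4.04% lower. Groups did not overlap in 1 of the 31 members, which was lower with atorvastatin. Among all genes tested 14.4% had groups that did not overlap, 5.53% higher and 8.85% lower, so separated genes were no more common in the set than in the background. Of the members, 16 of 31 had a difference above 0, against 47% of all genes tested. Their median difference was 0.03, with a range of -0.67 to 0.39, against a median of -0.02 for all genes.

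Differences beyond 1 log2 unit either way lay outside the 95% interval in 29 of the 31 members, against 89.8% of all genes tested. The exceptions were Lta and Ltb. Only these members were beyond 0.5 log2 units, against 5.48% of all genes. On this scale the change of genes near 1 FPKM is understated. The genes at an unadjusted p under 0.05 were 425 higher and 549 lower. Rescaling the libraries to equal sums without immunoglobulin genes gave 837 higher and 254 lower, and put 24 of 31 members above 0. Under that rescaling the median of all genes tested rose from -0.02 to 0.06. The share of all genes above 0 was not counted there, so its counts of members or list genes above 0 have no background. Removing a trend on transcript length gave 581 higher and 436 lower, and scaling by the median of ratios gave 552 higher and 512 lower.

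**Figure D2:**
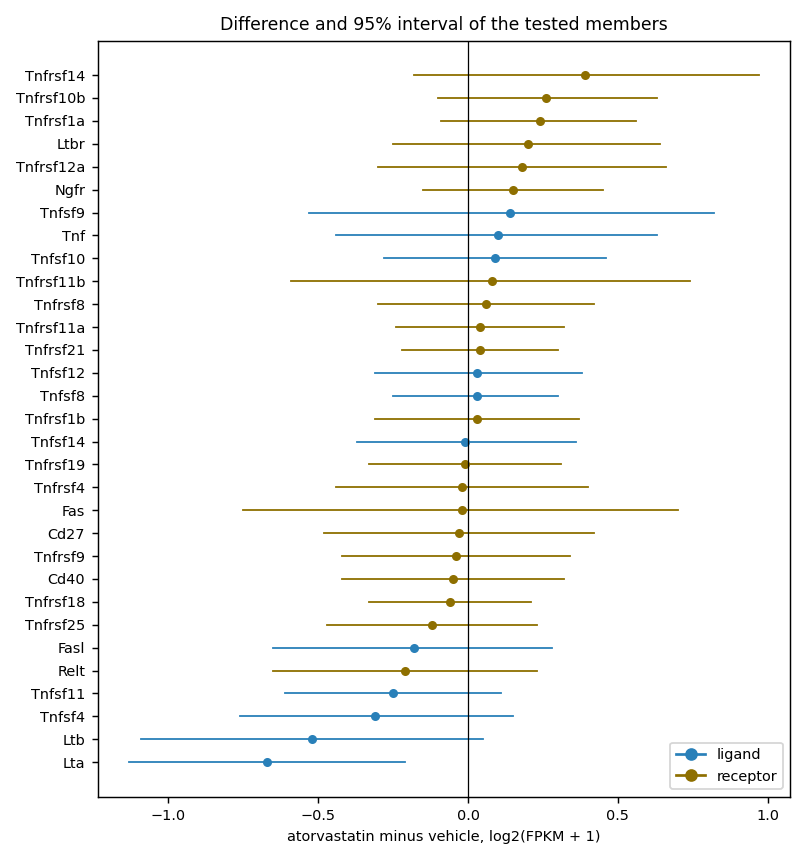
Difference between atorvastatin and vehicle, on the log2(FPKM + 1) scale, for the 31 tested members (points) with 95% intervals from limma (lines), ligands in blue and receptors in ochre. The interval of Lta, from -1.13 to -0.21, is the only one that leaves out 0.

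Ltb, Tnf and Lta lie side by side on chromosome 17 within 10.9 kb (mm10 coordinates, as in the files). Ltb (ENSMUSG00000024399, 35194439 to 35196305) is on the plus strand. Tnf (ENSMUSG00000024401, 35199381 to 35202007) lies 3075 bases further on, on the minus strand, and Lta (ENSMUSG00000024402, 35203165 to 35205351), also on the minus strand, follows after 1157 bases. Their promoter windows, 250 bases before and 50 after the RefSeq start in GRCm38.p6, are shown because Lta alone of these neighbours had separate groups. The part of promoter sequence in the values was not tested. Each is written 5′ to 3′ on the strand of its gene, and capitals mark matches to the NF-κB consensus and to TATAAA, both searched on both strands. The windows are chr17:35194257-35194556 (plus strand) for Ltb, chr17:35201958-35202257 (minus strand) for Tnf and chr17:35205302-35205601 (minus strand) for Lta.
Ltb: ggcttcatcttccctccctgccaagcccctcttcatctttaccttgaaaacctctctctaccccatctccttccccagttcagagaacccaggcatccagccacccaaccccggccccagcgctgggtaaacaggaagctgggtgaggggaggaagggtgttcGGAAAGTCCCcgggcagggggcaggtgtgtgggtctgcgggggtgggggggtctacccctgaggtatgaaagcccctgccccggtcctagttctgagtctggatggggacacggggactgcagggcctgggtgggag
Tnf: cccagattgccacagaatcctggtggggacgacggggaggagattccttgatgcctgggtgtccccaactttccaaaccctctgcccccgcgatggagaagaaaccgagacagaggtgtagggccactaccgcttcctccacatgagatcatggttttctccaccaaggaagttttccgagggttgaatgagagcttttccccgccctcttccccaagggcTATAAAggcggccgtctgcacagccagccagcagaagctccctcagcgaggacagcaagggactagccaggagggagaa
Lta: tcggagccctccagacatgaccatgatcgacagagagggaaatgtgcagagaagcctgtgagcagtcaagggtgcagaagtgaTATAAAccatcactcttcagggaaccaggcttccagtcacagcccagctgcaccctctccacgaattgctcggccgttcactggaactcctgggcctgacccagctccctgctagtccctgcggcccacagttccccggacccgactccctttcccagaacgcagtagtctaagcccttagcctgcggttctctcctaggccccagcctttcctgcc
The window of Ltb held an NF-κB consensus match that begins 87 bases before the start. The window of Tnf held a TATAAA that begins 29 bases before the start, and that of Lta held one that begins 167 bases before it. The marked matches do not overlap. Over all 32851 promoter windows, 8.46% held a match to the NF-κB consensus and 13.6% a TATAAA. RefSeq windows were found for 27 members, of which 4 held an NF-κB consensus match (Ltb, Tnfrsf25, Tnfrsf8 and Tnfrsf9) and 4 a TATAAA (Lta, Tnf, Tnfsf11 and Tnfsf18). A match is a run of letters and not evidence of binding. A missing match does not show that a site is absent, as only these windows and this consensus were searched.

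Lta encodes a soluble ligand made by lymphocytes, which binds the TNF receptors alone and the lymphotoxin beta receptor as a complex with Ltb. It had 2.79, 1.64 and 2.98 FPKM in atorvastatin libraries 1, 2 and 3, against 4.76, 3.61 and 5.06 FPKM in vehicle libraries 1, 2 and 3. Every atorvastatin library was below every vehicle library. The means were 2.47 ± 0.725 FPKM with atorvastatin and 4.48 ± 0.765 FPKM with vehicle (SD, n = 3 each). On the scale of log2(FPKM + 1) they differed by -0.67 (SE 0.19, 95% interval -1.13 to -0.21, limma unadjusted p = 0.011, adjusted p = 0.692). Over the alternatives, named in the closing section, the adjusted p ran between 0.575 and 0.986 and the unadjusted p between 0.00283 and 0.0346. The exact two-sided permutation test of the means gave p = 0.1, the smallest that 3 against 3 libraries allow. Groups that do not overlap always give this p, so the test adds nothing to their separation. From the steps in the low values of short genes, these levels stand for about 48.1 to 77.8 fragments per library with atorvastatin and 89.5 to 150 with vehicle.

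Ltb encodes the membrane anchor of the lymphotoxin heterotrimer and was the more abundant of the pair. It had 17.43, 21.80 and 12.96 FPKM in atorvastatin libraries 1, 2 and 3, against 30.94, 26.20 and 18.92 FPKM in vehicle libraries 1, 2 and 3. The groups overlapped through atorvastatin library 2 and vehicle library 3. The difference was -0.52 (SE 0.24, 95% interval -1.09 to 0.05, limma unadjusted p = 0.0671, adjusted p = 0.696). Without atorvastatin library 2 it was -0.69 (unadjusted p = 0.0318) and without vehicle library 3 it was -0.71 (unadjusted p = 0.0196), with adjusted p = 0.656 and 0.587 in limma. Without atorvastatin library 3 it was -0.34 (unadjusted p = 0.209).

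Tnf encodes the founding cytokine of the family, made by macrophages, T cells and other cells. It had 14.41, 8.60 and 12.85 FPKM in atorvastatin libraries 1, 2 and 3, against 8.66, 10.91 and 13.61 FPKM in vehicle libraries 1, 2 and 3. The lowest library of each group stood at almost the same level, and the groups overlapped throughout. The difference was 0.10 (SE 0.23, 95% interval -0.44 to 0.63, limma adjusted p = 0.929). A ratio of neighbouring genes within a library does not depend on how libraries are scaled. The level of Lta over that of Tnf was 0.194, 0.191 and 0.232 in atorvastatin libraries 1, 2 and 3, against 0.550, 0.331 and 0.372 in vehicle libraries 1, 2 and 3. The groups did not overlap, which by itself fixes the exact two-sided permutation test of the log2 ratio at p = 0.1, the smallest possible. The ratios given here were formed after the values had been seen. The ratio of Ltb to Tnf averaged 1.58 ± 0.829 with atorvastatin and 2.45 ± 1.09 with vehicle (SD, n = 3 each), and that of Lta to Ltb 0.155 ± 0.0775 and 0.186 ± 0.0707 in the same order, and both overlapped between groups.

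**Figure D3:**
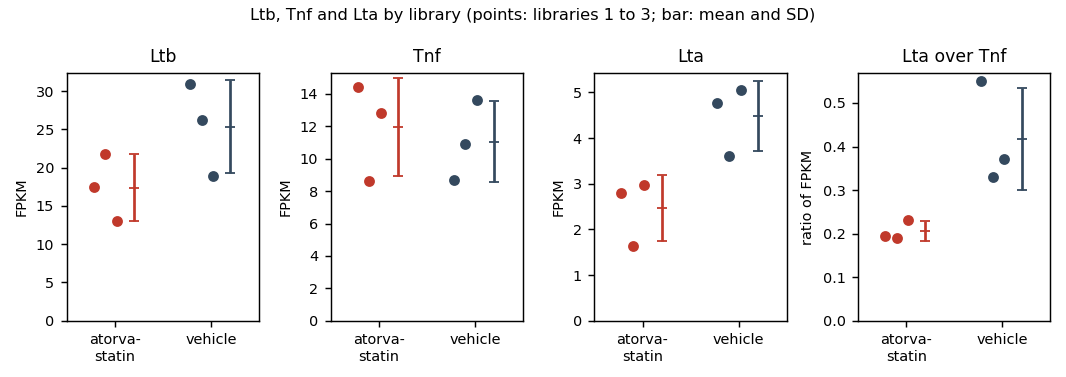
FPKM of Ltb, Tnf and Lta and the ratio of Lta to Tnf in each library, with atorvastatin on the left of each panel (points for libraries 1 to 3, bars for mean and SD, n = 3). Atorvastatin libraries reach at most 2.98 FPKM of Lta, below the lowest vehicle library at 3.61 FPKM, while Tnf overlaps.

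Lymphotoxins are made mainly by B cells, T cells and innate lymphoid cells. The B cell markers had 12 of 12 differences below 0, with a median of -0.44, and their summed level was 301 to 327 FPKM with atorvastatin, against 391 to 504 FPKM with vehicle. At an unadjusted p under 0.05 in limma there were 7 lower B cell markers and 0 past the false discovery rate. Their most abundant genes were Cd79a and Cd79b, signalling chains of the B cell receptor. With equal sums without immunoglobulin genes 12 B cell markers were below 0, with a median of -0.36, and 5 were at an unadjusted p under 0.05. Of the 12 T cell markers, led by Trbc2 and Cd2, 10 had differences below 0 with a median of -0.11, and 0 were at an unadjusted p under 0.05. With equal sums without immunoglobulin genes 7 T cell markers were below 0, with a median of -0.03, and without vehicle library 2 the median was -0.02. In the other direction, 11 were below 0 without atorvastatin library 2 or without vehicle library 3, with a median of -0.20 in each. In these fits 1 and 2 T cell markers were at an unadjusted p under 0.05. The 10 markers of NK and innate lymphoid cells, led by Id2 and Il2rb, added up to 113 to 145 FPKM with atorvastatin, against 112 to 153 FPKM with vehicle. Of the 7 tested, 6 had differences below 0, with a median of -0.05, and 0 were at an unadjusted p under 0.05. With equal sums without immunoglobulin genes 3 of the 7 were below 0, with a median of 0.05. Without vehicle library 3, 5 of 6 tested were below 0, with a median of -0.16. The macrophage markers, led by C1qb and C1qa, had 9 of 10 tested differences above 0, with a median of 0.21 and a summed level of 135 to 145 FPKM with atorvastatin, against 87.8 to 166 FPKM with vehicle. That direction rested on vehicle library 1, without which 4 of the 10 were above 0, with a median of -0.05. No marker of these lists was at 0 in all libraries. The part of these cell types in the levels of Lta, Ltb and Tnf was not tested.

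The genes of both TNF receptors were the most abundant members. Tnfrsf1b, which encodes TNF receptor 2 of lymphocytes and myeloid cells, had 62.51, 58.89 and 61.93 FPKM in atorvastatin libraries 1, 2 and 3, against 60.83, 68.45 and 51.40 FPKM in vehicle libraries 1, 2 and 3. The atorvastatin values lay inside the vehicle range. Its difference was 0.03 (SE 0.14, 95% interval -0.31 to 0.37).

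Tnfrsf1a, which encodes the widely expressed TNF receptor 1 with a death domain, had 64.40, 52.18 and 58.26 FPKM in atorvastatin libraries 1, 2 and 3, against 47.83, 45.77 and 54.13 FPKM in vehicle libraries 1, 2 and 3. The groups overlapped through the lowest atorvastatin library and the highest vehicle library. The difference was 0.24 (SE 0.14, 95% interval -0.09 to 0.56, limma unadjusted p = 0.125, adjusted p = 0.711). It was at an unadjusted p under 0.05 with equal sums without immunoglobulin genes and with the length trend removed, and its groups did not overlap under either, under median-of-ratios scaling, or without atorvastatin library 2 or vehicle library 3. Without atorvastatin library 1 the difference was 0.16 (unadjusted p = 0.34). The ratio of Tnfrsf1a to Tnfrsf1b averaged 0.952 ± 0.0728 with atorvastatin and 0.836 ± 0.197 with vehicle (SD, n = 3 each) and overlapped. Ltbr, the lymphotoxin beta receptor of stromal and myeloid cells, averaged 19.4 ± 2.89 FPKM with atorvastatin and 17.0 ± 3.90 FPKM with vehicle (SD, n = 3 each), a difference of 0.20 (SE 0.19). Unlike those of Lta, the groups of Ltbr overlapped.

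Tnfsf14 encodes LIGHT, which binds both Ltbr and the receptor HVEM, encoded by Tnfrsf14. It averaged 3.01 ± 0.715 FPKM with atorvastatin and 2.99 ± 0.293 FPKM with vehicle (SD, n = 3 each). Tnfrsf14 had 9.56, 9.65 and 9.18 FPKM in atorvastatin libraries 1, 2 and 3, against 7.60, 9.81 and 4.43 FPKM in vehicle libraries 1, 2 and 3. This was the largest positive difference of the set, 0.39 (SE 0.24, 95% interval -0.18 to 0.97, limma adjusted p = 0.723), and it came with a narrow atorvastatin range and a wide vehicle range. Without vehicle library 3, which had the lowest value, the difference was 0.12, and without vehicle library 2 it was 0.61 with an unadjusted p = 0.0265 in limma (adjusted p = 0.575).

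Among the costimulatory pairs, receptors of activated T cells and regulatory T cells were abundant and their ligands were mostly low. Tnfrsf9 encodes the receptor CD137 and Tnfsf9 its ligand. Tnfrsf9 had 39.17, 31.74 and 33.80 FPKM in atorvastatin libraries 1, 2 and 3, against 32.38, 32.67 and 43.55 FPKM in vehicle libraries 1, 2 and 3, with a difference of -0.04 (SE 0.16). Tnfsf9 had 24.72, 17.40 and 27.07 FPKM with atorvastatin and 18.50, 14.96 and 30.70 FPKM with vehicle, in the same order of libraries, with a difference of 0.14 (SE 0.28). Library 2 was the lowest and library 3 the highest for Tnfsf9 in both groups. The ratio of ligand to receptor was 0.660 ± 0.129 with atorvastatin and 0.578 ± 0.124 with vehicle (SD, n = 3 each).

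Tnfrsf18, which encodes GITR, was the member that varied least between libraries. It had 24.45, 23.07 and 20.69 FPKM in atorvastatin libraries 1, 2 and 3, against 24.64, 24.02 and 22.37 FPKM in vehicle libraries 1, 2 and 3. Its highest value was 1.19 times its lowest, and the 95% interval of its difference ran from -0.33 to 0.21. An antisense gene, Gm16008, at 2.86 FPKM on average, overlaps Tnfrsf18, and reads of the 2 cannot be told apart if strand was not counted. Its ligand gene Tnfsf18 had at most 0.32 FPKM with atorvastatin and 0.46 FPKM with vehicle. Tnfrsf4, which encodes OX40 and lies next to Tnfrsf18 on chromosome 4, averaged 17.4 ± 4.34 FPKM with atorvastatin and 17.3 ± 1.11 FPKM with vehicle (SD, n = 3 each). Its ligand gene Tnfsf4 had 1.18, 0.81 and 1.58 FPKM in atorvastatin libraries 1, 2 and 3, against 1.17, 1.95 and 2.02 FPKM in vehicle libraries 1, 2 and 3, with a difference of -0.31 (SE 0.19, limma unadjusted p = 0.152). The groups overlapped through vehicle library 1, and without it the groups of Tnfsf4 did not overlap and the difference was -0.46 (limma unadjusted p = 0.0447, adjusted p = 0.789). Without atorvastatin library 2 it was -0.18 (unadjusted p = 0.4).

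Cd40, the receptor through which T cells activate B cells, macrophages and dendritic cells, had 20.11, 16.24 and 20.22 FPKM in atorvastatin libraries 1, 2 and 3, against 23.46, 18.01 and 17.45 FPKM in vehicle libraries 1, 2 and 3. The difference was -0.05 (SE 0.16, 95% interval -0.42 to 0.32). Its ligand gene Cd40lg, a product of activated helper T cells, was below the level for testing, with 0.37, 0.74 and 0.39 FPKM in atorvastatin libraries 1, 2 and 3, against 0.69, 0.71 and 1.20 FPKM in vehicle libraries 1, 2 and 3. These levels overlapped and stand for about 8.37 to 32.2 fragments per library, and the exact two-sided permutation test gave p = 0.3.

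Cd27 encodes a receptor of T cells and memory B cells. Vamp1, at 1.83 FPKM on average, overlaps Cd27 on the opposite strand, and reads of both genes cannot be told apart if strand was not counted. Cd27 averaged 4.50 ± 0.861 FPKM with atorvastatin and 4.66 ± 1.21 FPKM with vehicle (SD, n = 3 each). Its ligand gene Cd70 had the lowest mean of all members over the 6 libraries, 0.258 FPKM against 0.267 FPKM for Tnfsf18, with 0.07, 0.17 and 0.06 FPKM in atorvastatin libraries 1, 2 and 3, against 0.07, 1.07 and 0.11 FPKM in vehicle libraries 1, 2 and 3. A value of 0.06 or 0.07 FPKM stands for about 1 fragment and the 1.07 FPKM of vehicle library 2 for about 16.1 fragments, so this gene was at the limit of detection in most libraries. The receptor gene Tnfrsf8, which encodes CD30, and its ligand gene Tnfsf8 had differences of 0.06 (SE 0.15) and 0.03 (SE 0.12). The ligand was the more abundant gene of this pair, as Tnfsf8 averaged 5.27 ± 0.436 and Tnfrsf8 2.70 ± 0.520 FPKM with atorvastatin, against 5.17 ± 0.527 and 2.53 ± 0.401 FPKM with vehicle (SD, n = 3 each).

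Among the death receptor genes, Fas, whose product kills activated lymphocytes when it is engaged, varied more between libraries than between groups. It had 34.77, 24.52 and 38.16 FPKM in atorvastatin libraries 1, 2 and 3, against 34.97, 20.90 and 46.43 FPKM in vehicle libraries 1, 2 and 3. Library 2 was the lowest and library 3 the highest in both groups. The difference was -0.02 with the widest error of all members (SE 0.30, 95% interval -0.75 to 0.70). Its ligand gene Fasl, expressed by cytotoxic lymphocytes, averaged 2.11 ± 0.510 FPKM with atorvastatin and 2.54 ± 0.710 FPKM with vehicle (SD, n = 3 each).

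Tnfrsf10b encodes the only mouse TRAIL receptor with a death domain. It had 7.32, 5.45 and 7.74 FPKM in atorvastatin libraries 1, 2 and 3, against 5.60, 4.79 and 6.08 FPKM in vehicle libraries 1, 2 and 3, a difference of 0.26 (SE 0.15, limma unadjusted p = 0.128, adjusted p = 0.711). Only atorvastatin library 2 lay within the vehicle range, and without it the groups did not overlap (difference 0.40, limma unadjusted p = 0.0281, adjusted p = 0.656). Without atorvastatin library 3 or without vehicle library 2 the difference was 0.18 (unadjusted p = 0.338 and 0.31). The TRAIL gene Tnfsf10 averaged 16.7 ± 2.60 FPKM with atorvastatin and 15.6 ± 2.06 FPKM with vehicle (SD, n = 3 each). Tnfsf15, which encodes TL1A, was below the level for testing with 0.83, 0.52 and 0.89 FPKM in atorvastatin libraries 1, 2 and 3, against 0.51, 0.40 and 0.62 FPKM in vehicle libraries 1, 2 and 3 (exact two-sided permutation test, p = 0.2). Its receptor gene Tnfrsf25, expressed mainly on T cells, had a difference of -0.12 (SE 0.15), and Tnfrsf21, which encodes death receptor 6, had one of 0.04 (SE 0.11).

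The remaining members include genes that act in stromal and other tissue cells. Fibroblast markers, led by Dcn and Dpt, had 6 of 9 differences above 0, with a median of 0.11. Without vehicle library 1 there were 4 of 9, with a median of -0.01, and without atorvastatin library 2 there were 8 of 9, with a median of 0.30. The part of these cells in the values that follow was not tested. Tnfsf11 encodes RANKL, which instructs M cells of the gut epithelium and osteoclasts, Tnfrsf11a its receptor RANK, and Tnfrsf11b the secreted decoy receptor osteoprotegerin. Tnfrsf11b had 27.21, 17.21 and 27.36 FPKM in atorvastatin libraries 1, 2 and 3, against 26.66, 14.97 and 27.11 FPKM in vehicle libraries 1, 2 and 3. Library 2 was again the lowest in both groups, and the difference was 0.08 (SE 0.28). Tnfsf11 had 1.58, 2.26 and 2.65 FPKM in atorvastatin libraries 1, 2 and 3, against 2.72, 2.55 and 2.92 FPKM in vehicle libraries 1, 2 and 3, a difference of -0.25 (SE 0.15, limma unadjusted p = 0.141, adjusted p = 0.716). Only atorvastatin library 3 reached into the vehicle range of Tnfsf11. The decoy receptor exceeded its ligand by a factor of 11.7 ± 4.95 with atorvastatin and 8.32 ± 2.14 with vehicle (SD, n = 3 each), with overlap. Tnfrsf11a averaged 2.32 ± 0.112 FPKM with atorvastatin and 2.24 ± 0.332 FPKM with vehicle (SD, n = 3 each).

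Tnfrsf12a encodes the TWEAK receptor Fn14, which is induced in injured tissue. It had 44.94, 31.24 and 39.54 FPKM in atorvastatin libraries 1, 2 and 3, against 31.34, 28.39 and 42.80 FPKM in vehicle libraries 1, 2 and 3, a difference of 0.18 (SE 0.20). The groups overlapped, and library 2 was the lowest in both. The TWEAK gene Tnfsf12 averaged 11.3 ± 1.48 FPKM with atorvastatin and 11.0 ± 1.43 FPKM with vehicle (SD, n = 3 each). A readthrough gene annotated as Tnfsfm13, at 3.21 FPKM on average, lies on the same strand and overlaps it, so reads may be divided between them. Relt, a receptor of lymphoid tissue, had a difference of -0.21 (SE 0.18), Ngfr, the low-affinity neurotrophin receptor, one of 0.15 (SE 0.13), and Tnfrsf19, which encodes TROY, one of -0.01 (SE 0.13). Without vehicle library 3 the difference of Relt was -0.39 (limma unadjusted p = 0.0295, adjusted p = 0.587). With vehicle library 2 left out instead, it was -0.06 (unadjusted p = 0.734). Relt, Ngfr and Tnfrsf19 averaged 3.50, 0.937 and 1.37 FPKM over the 6 libraries.

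The members also differed between libraries of the same group. Atorvastatin library 2 was the lowest of its group in 22 of the 31 tested members (71%), against 51.4% of all genes tested. Vehicle library 2 was the lowest of its group in 12 of the 31 (38.7%), against 31.9% of all genes. Both held at once in 11 of the 31 (35.5%), against 20.3% of all genes, and these included Fas, Tnfrsf11b, Tnfsf9 and Tnfrsf12a. No label says that a shared number pairs libraries. The deviations of both libraries 2 from their group means had a correlation of 0.137 across all genes tested. Between atorvastatin library 1 and vehicle library 3 it was 0.192. These correlations cannot show whether libraries with the same number share a batch or handling, which was not tested. Plasma cell markers, led by Jchain and Xbp1, added up to 2540, 4590 and 2180 FPKM in atorvastatin libraries 1, 2 and 3, against 3740, 3240 and 1690 FPKM in vehicle libraries 1, 2 and 3, so that library 2 was the highest with atorvastatin and in the middle with vehicle. The part of sample composition in these orders was not tested.

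**Figure D4:**
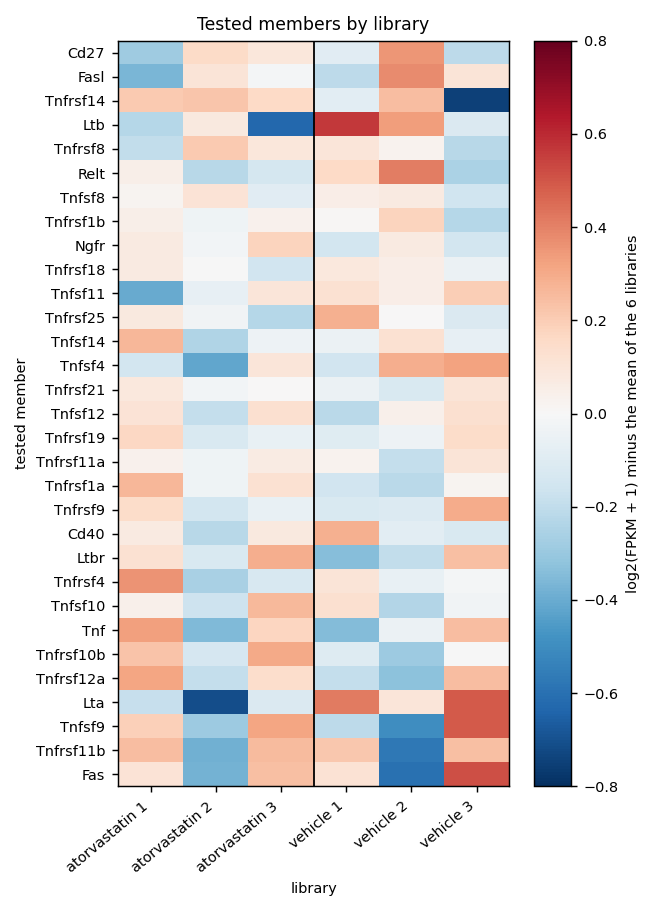
Level of the 31 tested members in each library as log2(FPKM + 1) minus the mean of the 6 libraries (colour scale, red higher and blue lower), atorvastatin libraries left of the line and vehicle libraries right of it. Rows are ordered by their summed level in library 2 of both groups; at the bottom Fas, Tnfrsf11b and Tnfsf9 are blue in atorvastatin 2 and vehicle 2.

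Genes that act downstream of the receptors were compared as lists. Of 26 genes of the TRAF adaptors and the TNF receptor complex, all tested, 11 had a difference above 0 and 15 below, with a median of -0.03. The 2 most abundant, Birc3, a ubiquitin ligase of the complex, and Tnip1, which helps the enzyme A20 to restrain NF-κB, averaged 56.3 ± 7.09 and 44.4 ± 5.71 FPKM with atorvastatin, against 61.2 ± 9.08 and 34.6 ± 2.52 FPKM with vehicle (SD, n = 3 each). Tnip1 was the 1 gene of the list at an unadjusted p under 0.05 (difference 0.34, SE 0.14, unadjusted p = 0.0432, adjusted p = 0.692 in limma), and its groups did not overlap. That p was under 0.05 in 10 of the 14 alternatives and ran up to 0.145. With equal sums without immunoglobulin genes 16 of the 26 were above 0.

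Of 10 genes of the death branch, 2 had a difference above 0 and 8 below, with a median of -0.08, and with equal sums without immunoglobulin genes 5 were above 0. Casp8, the caspase that death receptors activate, averaged 29.2 ± 2.61 FPKM with atorvastatin and 34.2 ± 4.06 FPKM with vehicle, and Mlkl, the executor of necroptosis, 18.7 ± 4.76 and 16.2 ± 3.57 FPKM in the same order (SD, n = 3 each). Diablo, which releases caspases from their inhibitors, was the 1 gene at an unadjusted p under 0.05. It had 4.71, 4.49 and 4.86 FPKM in atorvastatin libraries 1, 2 and 3, against 6.01, 5.81 and 6.02 FPKM in vehicle libraries 1, 2 and 3 (difference -0.29, SE 0.09, unadjusted p = 0.0185, adjusted p = 0.692 in limma). Its unadjusted p was under 0.05 in 10 of the 14 alternatives, but not with equal sums without immunoglobulin genes (0.0849) or without atorvastatin library 1 or 2 or vehicle library 1.

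Genes that control TNF after transcription, the sheddases and the mRNA decay factors, had 8 of 11 differences above 0 and a median of 0.08. Without atorvastatin library 3 there were 6 of 11, with a median of 0.01, and with equal sums without immunoglobulin genes there were 10 of 11, with a median of 0.17. Zfp36, which destabilises Tnf mRNA, averaged 459 ± 81.3 FPKM with atorvastatin and 379 ± 77.4 FPKM with vehicle, and Zfp36l1 172 ± 25.1 and 158 ± 13.5 FPKM in the same order (SD, n = 3 each). Rhbdf2, which encodes the rhomboid-like protein iRhom2 that brings the TNF sheddase ADAM17 to the cell surface, had 12.78, 11.29 and 12.51 FPKM in atorvastatin libraries 1, 2 and 3, against 10.29, 6.75 and 9.31 FPKM in vehicle libraries 1, 2 and 3. Its groups did not overlap, with a difference of 0.45 (SE 0.16, unadjusted p = 0.0274, adjusted p = 0.692 in limma), and its unadjusted p was under 0.05 in 11 of the 14 alternatives and ran up to 0.0803. Without vehicle library 2 the difference was 0.29.

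Genes induced by TNF and NF-κB had 17 of 20 tested differences above 0 and a median of 0.19, while 1 of the 20 was at an unadjusted p under 0.05 and 0 passed the false discovery rate. Without vehicle library 2 there were 12 above 0, with a median of 0.02, and without atorvastatin library 2 there were 20, with a median of 0.35. The most abundant, the chemokine genes Cxcl10 and Ccl2, averaged 535 ± 139 and 464 ± 138 FPKM with atorvastatin, against 566 ± 196 and 443 ± 179 FPKM with vehicle (SD, n = 3 each). The gene at an unadjusted p under 0.05 was Tnfaip2, first found as a TNF-induced gene of endothelial cells, with 77.81, 58.71 and 82.24 FPKM in atorvastatin libraries 1, 2 and 3, against 55.87, 48.83 and 20.23 FPKM in vehicle libraries 1, 2 and 3 (difference 0.90, SE 0.37, unadjusted p = 0.0481, adjusted p = 0.692 in limma). Its unadjusted p was under 0.05 in 8 of the 14 alternatives and ran up to 0.121, and without vehicle library 3 its difference was 0.46. Immediate early and heat shock genes, a list for the response to tissue dissociation led by the near-identical copies Hspa1b and Hspa1a, had 13 of 14 differences above 0 with a median of 0.37. In limma 1 of them (Ier2) was at an unadjusted p under 0.05 and 0 passed the false discovery rate, and 7 were at that p with equal sums without immunoglobulin genes. The count was 0 without atorvastatin library 1 or 3 or vehicle library 1 or 2. Their summed level was 7270 to 9940 FPKM with atorvastatin, against 6590 to 6870 FPKM with vehicle. The part of handling in the values of the NF-κB target genes was not tested.

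Stromal genes induced through the lymphotoxin beta receptor were listed because Lta and Ltb encode its ligands. Of 7 genes, 4 were tested, and 0 had a difference above 0, with a median of -0.20. Among them Madcam1 stood almost at 0, with a difference of -0.0 (SE 0.17). It averaged 5.1 FPKM with atorvastatin and 5.18 FPKM with vehicle. With no filter, 2 of the 7 were above 0, with a median of -0.02. The lymphoid chemokine genes Ccl21a and Cxcl13 averaged 694 ± 118 and 8.41 ± 2.13 FPKM with atorvastatin, against 824 ± 85.4 and 10.4 ± 3.84 FPKM with vehicle (SD, n = 3 each), with differences of -0.26 (SE 0.22) and -0.26 (SE 0.26). None was at an unadjusted p under 0.05 in limma, and median-of-ratios scaling, the sums without immunoglobulin genes and the length trend each put 1 gene above 0. Without vehicle library 3, 2 of the 4 were above 0, with a median of -0.06. Ccl21a has near-identical copies in the mouse genome that can share its reads. Of the family genes outside the set and outside the BAFF and APRIL group, 4 of 6 were tested. The most abundant were the mouse receptor genes Tnfrsf26 and Tnfrsf23, and Tnfrsf23 averaged 3.44 ± 0.300 FPKM with atorvastatin and 3.13 ± 0.289 FPKM with vehicle (SD, n = 3 each). Tnfrsf26 had 7.44, 8.40 and 7.83 FPKM in atorvastatin libraries 1, 2 and 3, against 10.42, 11.26 and 11.00 FPKM in vehicle libraries 1, 2 and 3. Each atorvastatin library was below every vehicle library, and the difference was -0.42 (SE 0.10, unadjusted p = 0.00434, adjusted p = 0.692 in limma). Its unadjusted p was under 0.05 in 14 of 14 alternatives.

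**Figure D5:**
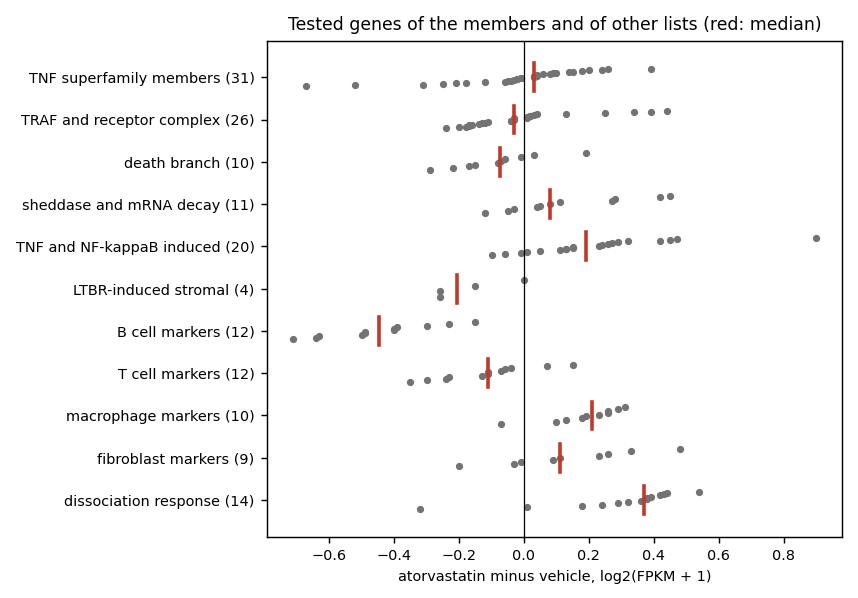
Difference between atorvastatin and vehicle on the log2(FPKM + 1) scale for each tested gene (points) of the 31 members and of other lists, with the median of each list in red and the number of genes in brackets. The members spread on both sides of 0 around a median of 0.03, while the 12 B cell markers all lie below 0 and 13 of the 14 dissociation genes above it.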

How the data were processed

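Lamina propria RNA was measured by RNA-seq in 3 atorvastatin and 3 vehicle libraries. The authors deposited FPKM values per gene, per the file headers. The submitters' processing notes name FastQC 0.11.2, Bowtie and mm10. The quantifier, its annotation and its strand choice remain not given in the sources used here. Symbols and lengths came from GENCODE mouse M21 (55141 of 55401 IDs matched), promoter windows from RefSeq.

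The 13590 genes that reached 1 FPKM in 3 or more libraries entered limma-trend (limma 3.58.1 under R 4.3.3) as log2(FPKM + 1), with p-values adjusted by Benjamini and Hochberg over all of them. The model was tested on simulated data with independent noise in each gene, which cannot show how it performs on these libraries. Members, lists and tests were chosen with earlier results of these data known. Values per library are given for members with an unadjusted p under 0.05, separate groups or a top 10 level, and for others picked after their values were seen. Of each list the 2 most abundant genes are named, and of pathway lists also those at an unadjusted p under 0.05. FPKM times length in low, short genes stepped at 0.0465 to 0.0625 FPKM kb, which implies libraries of 16000000 to 21500000 fragments if 1 step is 1 fragment; values between steps also occurred, so fragment numbers are approximate and no count test was run.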

Additional observations from a re-analysis of the deposited data

How the results depend on the processing

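The alternatives were a pseudocount of 0.1, no filter on low values, a mean of at least 1 FPKM, median-of-ratios scaling, equal sums without immunoglobulin genes, a length trend removed, robust variance, a replicate block by library number, and omission of each of the 6 libraries. No member passed the false discovery rate of 0.05 under any of these 14, and the difference of Lta was below 0 and at an unadjusted p under 0.05 in each. Over all genes, 0 passed except without atorvastatin library 1 or 3, with a range of 0 to 2 when 1 library was left out. Genes at an unadjusted p under 0.05 numbered 1761 with no filter, where genes near 0 are tested too, and 459 to 1138 when 1 library was left out. Members at that p numbered 3 with equal sums without immunoglobulin genes, 2 with the length trend removed and 1 to 3 when 1 library was left out (3 without atorvastatin library 2 or vehicle library 3, 2 without vehicle library 1 or 2). With the replicate block there were 2, as Ltb joined Lta (limma unadjusted p = 0.0176 and 0.00283, adjusted p = 0.728 for both). No label says that the numbers pair the libraries. The deviations of same-numbered libraries from their group means had correlations of -0.109, 0.137 and -0.0151 across genes, which cannot show whether they are paired. Members with separate groups numbered 2 with median-of-ratios scaling and with the length trend removed, 4 with equal sums without immunoglobulin genes, and 2 to 6 when 1 library was left out. The share of all genes with separate groups was not counted under these alternatives, so these counts cannot be set against a background. With fewer libraries, groups separate more easily. The cause of the shifts in these counts was not tested. The median of the members stayed between -0.04 and 0.10.

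Of 429 values of a member under an alternative, 377 kept their direction, and 13 of the 31 members kept it under all. Differences changed sign with equal sums without immunoglobulin genes in Tnfsf14 0.06, Cd40 0.04, Cd27 0.04, Tnfrsf4 0.07, Tnfrsf9 0.05, Tnfrsf18 0.03, Fas 0.07 and Tnfrsf19 0.04, and with the length trend removed in Tnfsf14 0.06, Cd27 0.05, Tnfrsf4 0.11, Tnfrsf9 0.02, Tnfrsf18 0.06, Fas 0.06 and Tnfrsf11a -0.01. They spanned 0 when 1 library was left out in Tnf -0.05 to 0.30, Tnfrsf1b -0.08 to 0.13, Tnfsf14 -0.14 to 0.11, Cd40 -0.13 to 0.08, Cd27 -0.14 to 0.14, Tnfrsf4 -0.20 to 0.11, Tnfsf8 -0.05 to 0.08, Tnfrsf8 -0.03 to 0.18, Tnfsf9 -0.07 to 0.42, Tnfrsf9 -0.13 to 0.09, Tnfrsf18 -0.11 to 0.01, Fas -0.33 to 0.23, Tnfsf10 -0.01 to 0.20, Tnfrsf21 -0.01 to 0.11, Tnfrsf11a -0.04 to 0.10, Tnfrsf11b -0.19 to 0.29, Tnfsf12 -0.07 to 0.14 and Tnfrsf19 -0.09 to 0.06. The number of fragments limits Cd70, Tnfsf18 and Cd40lg above all.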
